A study of Rattus norvegicus with 6 samples.

Results

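Heme breakdown and iron handling were followed through 10 genes in the renal cortex of rats given o-anthranilic acid. The genes were the heme oxygenases Hmox1 and Hmox2, the biliverdin reductases Blvra and Blvrb, the ferritin subunits Fth1 and Ftl1, the iron transport genes Tfrc, Slc11a2 and Slc40a1, and the peptide hormone gene Hamp. They were chosen by symbol, knowing that Hmox1 had stood far above all other arrays on 1 treated array. All 10 were found, through 26 probes, among 15277 named genes and 61526 probes. All 26 probes passed the filter on dim spots, which asked for a spot well above background on 3 or more of the 6 arrays. Treated animals were 3 male Sprague-Dawley rats given o-anthranilic acid (ortho-aminobenzoic acid) at 1000 mg/kg/day for 4 weeks, and vehicle animals were 3 male Sprague-Dawley rats given corn oil for the same time. The rats had been bought at 5 weeks of age, and total RNA of each renal cortex went to its own single-colour (Cy3) Agilent array.

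Heme oxygenase opens the heme ring and releases iron, carbon monoxide and biliverdin, which biliverdin reductase turns into bilirubin. The freed iron is stored in ferritin or leaves the cell through ferroportin, the Slc40a1 product, which hepcidin, the Hamp product, removes from the membrane. Iron regulatory proteins bind stem-loops in the transcripts of ferritin, ferroportin, the transferrin receptor and a form of Slc11a2 and set their translation or stability, so that transcript and protein levels of these genes can differ. In the kidney the proximal tubule takes iron back from the filtrate, and Hmox1 is known as a gene induced by heme, oxidants and injury.

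Values are given as log2 signal, the log2 of the processed spot brightness over the array's 75th percentile, so that 0 is the brightness of the probe at that percentile. Levels of different genes cannot be set against each other on this scale, because probes differ in how they bind. Between 63.7% and 69.3% of probes were well above background on the 6 arrays, and no probe used was saturated. The number of arrays limits the precision. All 6 proximal tubule markers were measured, with a summed signal of 969.5 to 1030 times the 75th percentile on treated arrays and 961.1 to 999.2 times on vehicle arrays. Bulk tissue cannot tell fewer cells of a type from less RNA per cell. Of the 6 arrays, 5 shared a slide and a scan, and treated replicate 2 was alone on another. Replicates carry the number of their scanner file, and in the authors' deposited value table the values of treated replicate 3 stand in the column of treated replicate 1, so the number of that animal is not settled.

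Treated and vehicle animals were set against each other to ask which of these transcripts differed with o-anthranilic acid. None of the 10 genes passed: limma with Benjamini-Hochberg adjustment called 0 of 30709 features, a background of 0%, with 2555 features at an unadjusted p under 0.05. After Hmox1, the largest fold change was that of Blvra, 1.52-fold higher in treated animals with groups that overlapped. The iron transport genes Slc11a2, Tfrc and Slc40a1 were 1.39-fold, 1.27-fold and 1.20-fold higher at an unadjusted p under 0.05. Fth1 was 1.02-fold and Hmox2 1.06-fold lower, both with groups that overlapped. At that unadjusted threshold 3 of the 10 genes were higher and 0 lower, against 3.52% of all features higher and 4.8% lower. These counts are descriptions, because the genes were chosen with results of this contrast known. Including Hmox1, 7 of the 10 log2 fold changes were above 0, with a median of 0.21, or 0.16 over the 9 genes without Hmox1 and 0.11 over all 10 without treated replicate 3, against -0.01 over all features.

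**Figure D1:**
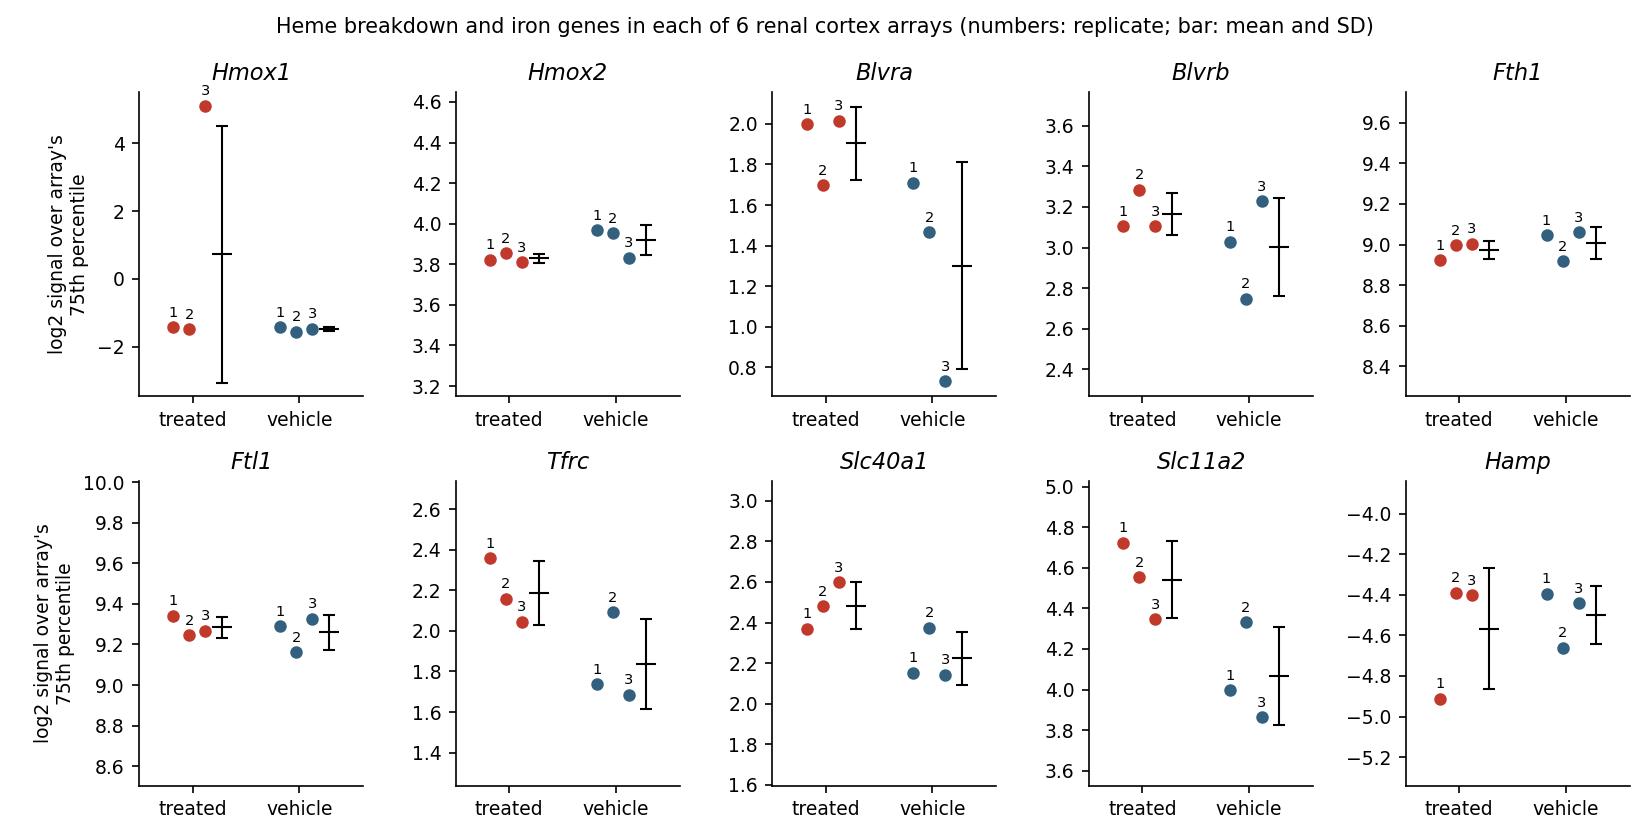
Log2 signal of each of the 10 genes on every array, with treated animals left of vehicle animals, points numbered by replicate, and the group mean with its SD beside them (the vertical range differs between panels). Hmox1 stands at 5.11 on 1 treated array and at -1.55 to -1.42 on the rest, while the panels of Slc11a2, Tfrc and Slc40a1 show treated points that lie mostly above the vehicle points.

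Hmox1 encodes the inducible heme oxygenase. Its log2 signal was -1.42, -1.49 and 5.11 in treated animals and -1.42, -1.55 and -1.47 in vehicle animals. The other 2 treated arrays lay within the vehicle range or at its upper edge, and treated replicate 3 was 95.5-fold above the mean of the other 5 arrays. The log2 fold change between the groups was 2.21 ± 1.77 (SE, n = 3 per group), and 0.03 ± 0.09 without treated replicate 3. A difference of 6.53 separated treated replicate 3 from the next array, while the other 5 arrays spanned 0.13. Of all 30709 features, Hmox1 had the widest such gap on that array.

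Hmox1 was measured by 1 probe (NM_012580), so no second probe bears on the value. The raw median brightness of its spot was 402, 374 and 33839.5 on the treated arrays and 366, 378 and 356 on the vehicle arrays. Local background on treated replicate 3 was 30, and the spot carried neither an outlier flag nor a saturation flag on any array. Its width was 25.1 pixels there and 24.2 to 25.6 on the other arrays. Around the spot, 18 of 24 neighbouring non-control spots within 2 rows and 2 columns were well above background on all arrays. Their distances between treated replicate 3 and the mean of the other 5 arrays ran from -0.34 to 0.37, so none of these neighbours was raised to a like extent.

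Hmox2, the constitutive heme oxygenase, did not follow. Its log2 signal was 3.82, 3.86 and 3.81 in treated animals and 3.97, 3.95 and 3.83 in vehicle animals, with treated replicate 3 the lowest of the 6 arrays. The log2 fold change was -0.09 ± 0.07 (SE), with a 95% interval from -0.27 to 0.09. Its second probe read 3.71, 3.66 and 3.75 in treated animals and 3.93, 3.90 and 3.89 in vehicle animals. There all treated values lay below all vehicle values, by 0.20 on average. Single probes of all genes had such a separation, treated lower, in 8.61% of cases.

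Blvra, biliverdin reductase A, had log2 signals of 2.00, 1.70 and 2.02 in treated animals and 1.71, 1.47 and 0.73 in vehicle animals. Treated replicates 1 and 3 were the highest, treated replicate 2 fell just under vehicle replicate 1, and vehicle replicate 3 was far below the rest. The log2 fold change was 0.60 ± 0.26 (SE), and it ranged from 0.32 without vehicle replicate 3 to 0.81 without vehicle replicate 1. Treated replicate 3 exceeded treated replicate 1 by 0.02. Blvra had 1 probe.

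Blvrb, biliverdin reductase B, which also reduces flavins, stood at 3.11, 3.29 and 3.11 in treated animals and 3.03, 2.75 and 3.23 in vehicle animals. The groups overlapped, with vehicle replicate 2 the low array. The log2 fold change was 0.16 ± 0.14 (SE), and 0.04 without vehicle replicate 2. Its other probes stood at 0.18 and 0.09, with the same low array.

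The ferritin heavy chain Fth1, whose product oxidises iron for storage, had log2 signals of 8.922, 8.996 and 9.004 in treated animals and 9.045, 8.917 and 9.061 in vehicle animals. The groups overlapped, and vehicle replicate 3 was the highest array. The log2 fold change was -0.03 ± 0.08 (SE), with a 95% interval from -0.22 to 0.15. All 4 probes of Fth1 lay between -0.06 and 0.01. On no Fth1 probe was treated replicate 3 the highest array.

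For Ftl1, the light chain, the answer depended on the probe. The brightest probe, which represents the gene in the fit, read 9.34, 9.24 and 9.27 in treated animals and 9.29, 9.16 and 9.33 in vehicle animals, with a log2 fold change of 0.025 ± 0.079 (SE). On the other 4 probes every treated value was above every vehicle value, with log2 fold changes of 0.13 to 0.20. Probe A_44_P114869, the largest of these, read 7.52, 7.51 and 7.42 in treated animals and 7.27, 7.29 and 7.28 in vehicle animals. With the mean of the 5 probes the log2 fold change was 0.14. Ferritin genes have near-identical processed copies in mammalian genomes, and which of them each probe binds was not tested here.

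**Figure D2:**
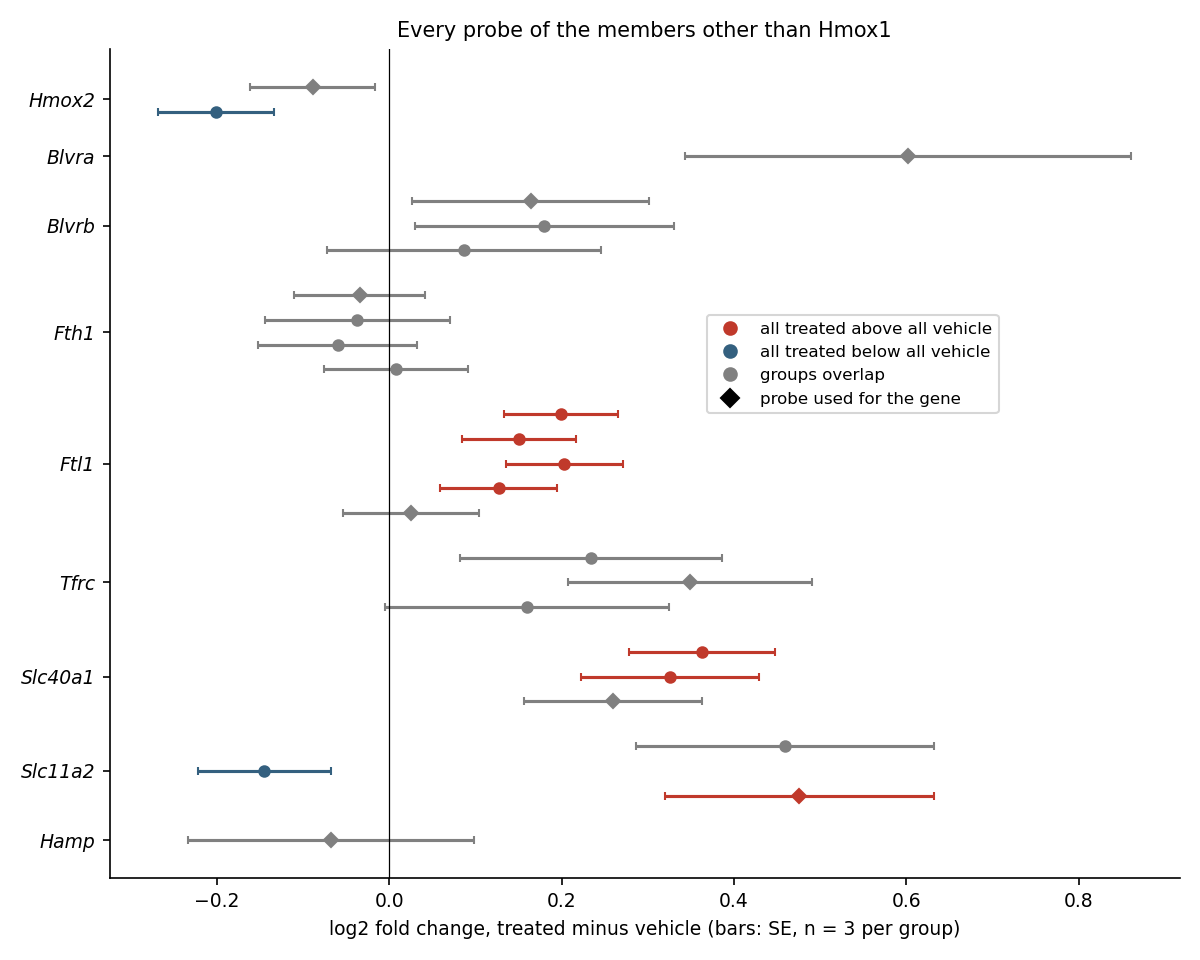
Log2 fold change, treated minus vehicle, for every probe of the 9 genes other than Hmox1, with SE bars (n = 3 per group). Coloured points mark probes whose groups do not overlap, and diamonds mark the probe that stands for the gene: 4 of 5 Ftl1 probes and 2 of 3 Slc40a1 probes and 1 of 3 Slc11a2 probes lie wholly higher in treated animals, and 1 other Slc11a2 probe and 1 of 2 Hmox2 probes lie wholly lower.

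Counted over probes, 7 of 26 had all treated arrays above all vehicle arrays, against 6.3% of all single probes, and 2 of 26 had them all below, against 8.61%. Those 7 probes belonged to 3 genes, Ftl1, Slc40a1 and Slc11a2. Probes of 1 gene read the same or related transcripts in the same RNA and are not separate observations. At the level of genes, 1 of 10 was separated upward, Slc11a2, against 6.51% of all features, and 0 downward, against 8.13%.

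Slc11a2 encodes the divalent metal transporter that moves iron out of endosomes and across apical membranes. It read 4.723, 4.554 and 4.346 in treated animals and 3.997, 4.333 and 3.864 in vehicle animals. Every treated array lay above every vehicle array, and treated replicate 3 lay just over vehicle replicate 2. The log2 fold change was 0.48 ± 0.16 (SE). A second probe gave 0.46 ± 0.17, with groups that overlapped. The third probe went the other way: it read 1.19, 1.26 and 1.14 in treated animals and 1.27, 1.42 and 1.33 in vehicle animals, a log2 fold change of -0.14 ± 0.08. Slc11a2 is known to have transcripts with different first exons and different ends, and which of them each probe reads is not given in the sources used here. With the mean of the 3 probes the log2 fold change was 0.26.

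Tfrc, the transferrin receptor that brings iron into cells, had log2 signals of 2.36, 2.16 and 2.05 in treated animals and 1.74, 2.09 and 1.69 in vehicle animals. Only vehicle replicate 2 reached into the treated range, and the log2 fold change was 0.35 ± 0.14 (SE). Its 2 dimmer probes gave 0.23 ± 0.15 and 0.16 ± 0.17. Slc11a2 and Tfrc ordered the arrays almost alike: treated replicate 1 was highest and treated replicate 2 next in both, and vehicle replicate 2 was the highest vehicle array in both.

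Slc40a1, ferroportin, the only known cellular exporter of free iron in mammals, had log2 signals of 2.37, 2.48 and 2.60 in treated animals and 2.15, 2.37 and 2.14 in vehicle animals. Vehicle replicate 2 and treated replicate 1 met at 2.37, and the log2 fold change was 0.26 ± 0.10 (SE). On its other probes every treated array lay above every vehicle array, with log2 fold changes of 0.33 ± 0.10 and 0.36 ± 0.09. Here treated replicate 3 was the highest array on all 3 probes, by 0.09 to 0.21 over the next. Without treated replicate 3 the log2 fold change was 0.20.

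The start regions of these 3 iron transport genes are shown because theirs were the differences at an unadjusted p under 0.05. RefSeq windows of build GRCr8 were matched for 7 of the 10 genes, each 250 bases before to 50 after a start. They are given on the sense strand, which reads as the transcript does. Capitals mark GGGCGG (the GC box) and ACGTG (the hypoxia response element core), on either strand, with no overlap between marked runs. Slc11a2 has 2 windows, at chr7:133417739-133418038 and chr7:133418890-133419189, Tfrc lies at chr11:81690269-81690568 and Slc40a1 at chr9:55543411-55543710, all on the minus strand.
Slc11a2 first window: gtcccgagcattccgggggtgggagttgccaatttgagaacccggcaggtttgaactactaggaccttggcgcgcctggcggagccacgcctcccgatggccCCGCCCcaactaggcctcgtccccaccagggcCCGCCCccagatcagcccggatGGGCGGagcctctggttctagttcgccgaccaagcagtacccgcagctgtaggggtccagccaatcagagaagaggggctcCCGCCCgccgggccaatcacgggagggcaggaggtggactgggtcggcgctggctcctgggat
Slc11a2 second window: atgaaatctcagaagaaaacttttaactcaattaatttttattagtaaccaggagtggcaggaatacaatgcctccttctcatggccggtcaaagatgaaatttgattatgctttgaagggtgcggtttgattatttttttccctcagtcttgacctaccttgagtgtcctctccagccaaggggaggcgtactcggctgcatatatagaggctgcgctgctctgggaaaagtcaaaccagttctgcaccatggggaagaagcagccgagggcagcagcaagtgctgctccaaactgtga
Tfrc: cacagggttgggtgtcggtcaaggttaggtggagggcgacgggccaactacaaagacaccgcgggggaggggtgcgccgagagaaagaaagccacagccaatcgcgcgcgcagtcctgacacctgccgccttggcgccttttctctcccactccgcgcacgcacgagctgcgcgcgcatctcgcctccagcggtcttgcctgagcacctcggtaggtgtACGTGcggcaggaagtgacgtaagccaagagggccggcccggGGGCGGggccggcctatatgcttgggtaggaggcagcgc
Slc40a1: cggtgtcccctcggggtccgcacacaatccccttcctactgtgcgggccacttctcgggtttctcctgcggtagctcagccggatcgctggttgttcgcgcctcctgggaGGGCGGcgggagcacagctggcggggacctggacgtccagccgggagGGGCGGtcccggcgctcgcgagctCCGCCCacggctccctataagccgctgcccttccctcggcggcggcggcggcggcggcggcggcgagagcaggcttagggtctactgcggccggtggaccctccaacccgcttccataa

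GGGCGG occurred 4 times in the first Slc11a2 window, 3 times in that of Slc40a1 and once in that of Tfrc, and 33.1% of 33469 windows held it. ACGTG occurred in the Tfrc window alone among these 4, and 19.3% of all windows held it. None of the 4 held TGACNNNGC (the antioxidant response element core, either strand, in 12.1% of all windows) or TATAAA (either strand, in 14.2%). None held the bulge and loop of the iron responsive element (sense strand only, in 9.55%). These windows hold only 50 bases after a start, so they cannot show whether a transcript carries that element further along. The TGACNNNGC letters were present in 1 window each of Hmox2 and Blvra. A match here is a description of letters, not a bound site.

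Hamp encodes hepcidin, which is made mainly in the liver. Its probe was dim, well above background on 2 treated and 3 vehicle arrays. Log2 signals were -4.91, -4.39 and -4.40 in treated animals and -4.39, -4.66 and -4.44 in vehicle animals. The array under the background criterion, treated replicate 1, was the lowest, and the log2 fold change was -0.07 ± 0.17 (SE), or 0.10 without it.

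Across the 9 genes other than Hmox1, the distance of treated replicate 3 from the mean of the other 5 arrays had a median of 0.04 and lay between -0.08 and 0.50. Blvra and Slc40a1 were highest on that array, by 0.02 and 0.12 over the next. Among all features, 14% were highest on treated replicate 3. The mean of the 9 genes relative to the vehicle mean was 0.18, 0.20 and 0.19 on the treated arrays and 0.05, 0.03 and -0.08 on the vehicle arrays, so treated replicate 3 stood level with the other 2 treated arrays.

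Genes that control Hmox1 were also measured. Of 7 regulators, 4 were highest on treated replicate 3, by at most 0.15. Nfe2l2, which encodes the activator Nrf2, averaged 4.08 ± 0.18 in treated animals and 4.21 ± 0.02 in vehicle animals (SD, n = 3 each), and led the next array on treated replicate 3 by 0.06. Bach1, the heme-binding repressor of Hmox1, differed by 0.14 ± 0.08 (log2 fold change, SE) without overlap of the groups, while another of its 3 probes stood at -0.16. Mafk, a small partner of both factors, differed by -0.23 ± 0.07, with all treated arrays below all vehicle arrays. Maff and Bach2 exceeded the next array by 0.15 and 0.08 on treated replicate 3.

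Of 19 stress genes often induced with Hmox1, 16 were measured, and 3 were highest on treated replicate 3. Nqo1, a quinone reductase, read -1.93, -1.16 and -0.97 in treated animals and -2.35, -2.97 and -2.60 in vehicle animals. It led the next array on treated replicate 3 by 0.19. Gdf15 and Txnrd1 led by 0.18 and 0.09, although the other 3 probes of Txnrd1 had log2 fold changes of -0.30 to -0.17 against 0.14 for the probe used. Gclm and Gclc, subunits of the first enzyme of glutathione synthesis, were lower on treated replicate 3 than on the other 2 treated arrays: Gclm read -1.77, -1.99 and -2.69 in treated animals and -2.59, -3.56 and -3.03 in vehicle animals. Hspa1a, an inducible heat shock chaperone, was lower on every treated array, at -2.74, -3.24 and -2.64 against -1.81, -2.03 and -1.94 in vehicle animals. No regulator or stress gene stood more than 1 above the next array on treated replicate 3.

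**Figure D3:**
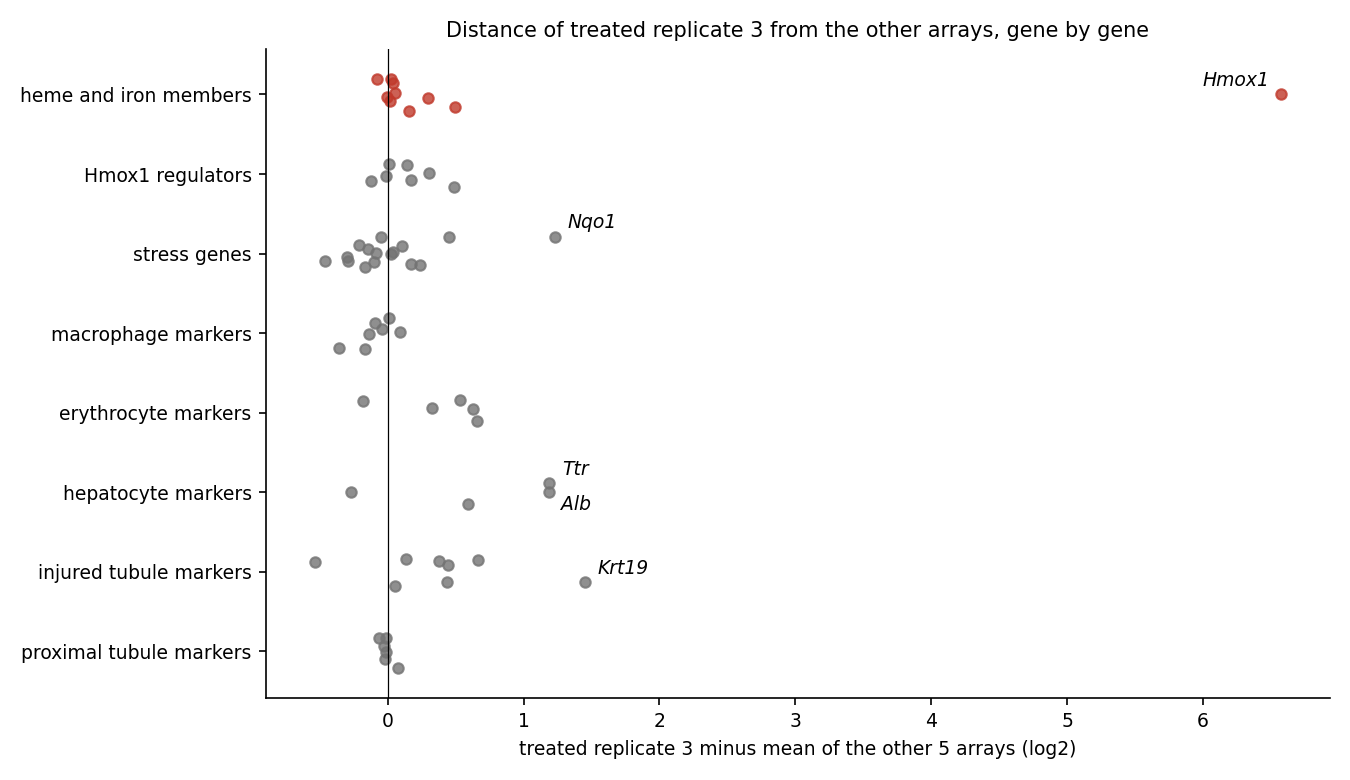
Distance of treated replicate 3 from the mean of the other 5 arrays on the log2 scale, 1 point per gene, for the 10 heme and iron genes, Hmox1 regulators, stress genes and markers of macrophages, erythrocytes, hepatocytes, injured tubule and proximal tubule. Hmox1 lies at 6.58, Krt19 at 1.45, Nqo1 at 1.23, Ttr at 1.19 and Alb at 1.19, and all other genes shown lie within 1 of 0.

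Macrophages are rich in Hmox1 when they clear red cells, so their markers were read on the same arrays. Of 10 macrophage markers 7 were measured, and Cd163, Marco and Vsig4 were not well above background on any array. The summed signal of the 7 was 77.6, 102.8 and 86.9 times the 75th percentile on treated arrays and 96.5, 94.4 and 114.7 times on vehicle arrays. By this sum, in which Lyz2 was by far the brightest marker, treated replicate 3 was under each vehicle array. Marker by marker, Lyz2, Cd68 and C1qb were under each vehicle array there, while C1qa, Csf1r, Adgre1 and Mrc1 were not. Erythrocyte markers, of which 5 of 8 were measured, summed to 244.8, 280.6 and 299.3 on treated arrays and 195.9, 212.5 and 259.4 on vehicle arrays. Treated replicate 3 was the highest by this sum, in which Hbb was by far the brightest marker. Hbb, Slc4a1 and Epb42 were highest on treated replicate 3, while Alas2 and Ahsp were highest on treated replicate 2. Of 8 injured tubule markers, all measured, 6 had log2 fold changes above 0, with a median of 0.23, and 3 were highest on treated replicate 3. Havcr1, the kidney injury molecule gene, read -4.20, -4.68 and -4.15 in treated animals and -5.31, -4.86 and -5.01 in vehicle animals, with every treated array above every vehicle array. Its probe was dim, and it was the only 1 of the 8 injury markers whose groups did not overlap. Among all features, 6.51% were separated in that direction. The summed signal of the injury markers was 38.8, 34.5 and 34.9 times the 75th percentile on treated arrays and 25.1, 29.5 and 37.3 times on vehicle arrays. By that sum, which the brightest markers dominate, treated replicate 3 was not the highest. With each injury marker weighted equally it was. Their mean log2 signal relative to the vehicle mean was 0.345, 0.345 and 0.516 on treated arrays and -0.391, -0.035 and 0.426 on vehicle arrays. Of 5 hepatocyte markers 4 were measured, and Alb and Ttr were highest on treated replicate 3, by 0.64 and 0.68 over the next array. Apoa1 and Cyp2c11 were not highest there. Apoa1 had a log2 fold change of -0.67, and Cyp2c11 was highest on vehicle replicate 1, at 2.105, the array with the largest hepatocyte sum. The 4 hepatocyte markers summed to 0.47, 0.43 and 1.43 times on treated arrays and 4.85, 0.65 and 0.99 times on vehicle arrays. The part of these cell type and injury markers in the values of the 10 genes was not tested.

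The gap of treated replicate 3 over the next array was ranked among named genes well above background on treated replicate 3. After Hmox1, the next 9 were Or5b123b, Upk3a, Kcnn1, Or14j5b, Got1l1, Grxcr2, Prss2, Rnf126 and Or6y1, with gaps of 4.04 down to 1.59. All of these but Rnf126 were dim on the other 5 arrays, under -2.6, where gaps are limited by signal over background. Upk3a, a urothelial membrane protein, read -5.71, -4.35 and -1.24 in treated animals and -4.86, -4.74 and -4.94 in vehicle animals, and its second probe had a gap of 4.47. Rnf126, a ubiquitin ligase, read 2.03, 1.90 and 3.66 in treated animals and 1.88, 1.65 and 1.53 in vehicle animals, but its second probe read -1.12 on treated replicate 3 and up to -1.11 elsewhere. Pearson correlation with Hmox1 was ranked only among named genes whose log2 signal spanned at least 1 over the 6 arrays. The highest of these were Ager, Vsig2, Or14j5b, Or4k50 and Rnf126, at 0.99, 0.98, 0.98, 0.98 and 0.98. On the other 5 arrays Ager lay between -3.57 and -3.30 and Vsig2 between -4.06 and -3.81. Both thus met that span only through treated replicate 3. These correlations describe 6 arrays, of which treated replicate 3 alone was far from the rest in Hmox1. Features more than 1 above every other array numbered 69, 55 and 94 on the treated arrays and 26, 42 and 21 on the vehicle arrays, and those more than 3 above numbered 1, 0 and 7 on the treated arrays and 0, 2 and 0 on the vehicle arrays.

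Beyond the 10 genes, 55 others of heme and iron handling were listed, and 46 were measured. None passed the test, 23 had log2 fold changes above 0 and 23 below, and the median was 0.00. At an unadjusted p under 0.05, 5 of 46 were higher and 1 of 46 lower, against 3.52% and 4.8% of all features. Groups did not overlap for 4 of 46 upward and 2 of 46 downward, against 6.51% and 8.13% of all features, so the counts without overlap were near the background.

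Among iron uptake and reduction genes, 11 of 12 were measured. Cybrd1, a ferric reductase, read -1.78, -1.49 and -1.57 in treated animals and -1.82, -2.18 and -2.10 in vehicle animals, a log2 fold change of 0.42 ± 0.13 (SE), with 0.28 on its second probe. Scara5, a ferritin receptor well above background on only 2 treated and 2 vehicle arrays, had 0.59 ± 0.70, and 0.14 without treated replicate 3. Aco1, iron regulatory protein 1, read 6.32, 6.45 and 6.47 in treated animals and 6.07, 6.12 and 6.23 in vehicle animals. Its log2 fold change was 0.27 ± 0.09, against 0.06 ± 0.11 for Ireb2, iron regulatory protein 2. Pcbp2, a chaperone that loads iron onto ferritin, had -0.13 ± 0.07 without overlap, and -0.03 and 0.03 on its other probes.

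Bmp6, the growth factor that drives hepcidin in the liver, read -4.81, -4.55 and -4.47 in treated animals and -4.08, -4.13 and -4.09 in vehicle animals. Its log2 fold change was -0.51 ± 0.11 (SE), or -0.21 after normexp background correction. Of 7 measured genes of hepcidin control, 5 were below 0, with a median of -0.18. Ambp, whose alpha-1-microglobulin binds heme, read 1.11, 0.51 and 1.20 in treated animals and 0.17, 0.15 and -0.02 in vehicle animals, a log2 fold change of 0.84 ± 0.19. Ugt1a1, which conjugates bilirubin, read 2.00, 2.50 and 1.98 in treated animals and 1.57, 1.71 and 1.31 in vehicle animals, a log2 fold change of 0.63 ± 0.18. Exons of the Ugt1a genes are shared, so this probe may read several of them. The 10 measured genes of mitochondrial iron and iron-sulphur assembly lay between -0.10 and 0.20, and the 3 of iron export and oxidation between -0.47 and 0.05, all with groups that overlapped.

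**Figure D4:**
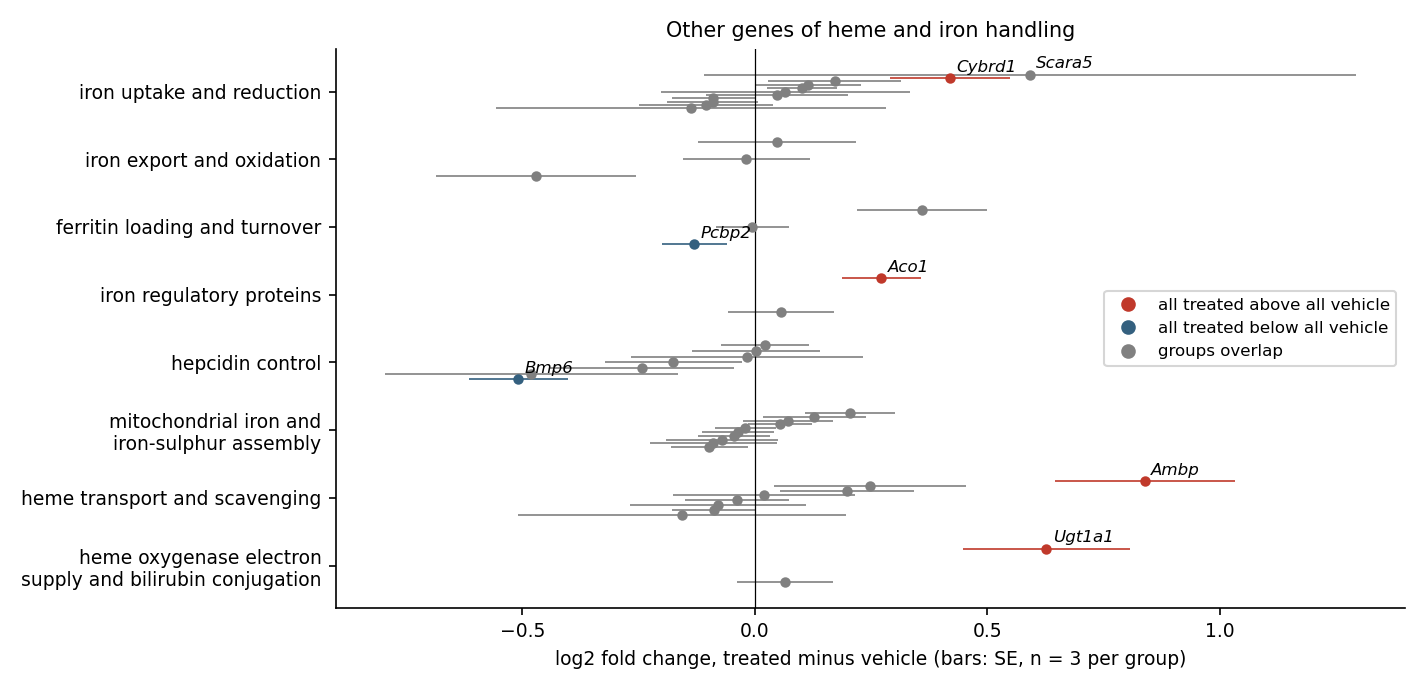
Log2 fold change, treated minus vehicle, of 46 other genes of heme and iron handling by list, with SE bars (n = 3 per group). Ambp (0.84), Ugt1a1 (0.63), Cybrd1 (0.42) and Aco1 (0.27) lie wholly higher in treated animals and Bmp6 (-0.51) and Pcbp2 (-0.13) wholly lower, while most other points lie near 0.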

How the data were processed

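Agilent Feature Extraction 10.7 is named in the submitters' processing notes. Per the file headers, the scanner output is linear intensity: median brightness of each spot and of its surroundings, and a processed signal made by subtracting background and detrending, with no scaling across arrays. A ratio fills the value table the authors deposited, found by comparison to be the processed signal over the array's 75th percentile. Its column medians were 0.106, 0.104 and 0.103 for treated and 0.104, 0.106 and 0.103 for vehicle samples. It is linear, and is not centred per gene. Its columns match scanner files of another replicate of the same group, so the numbering is uncertain but the groups are not. Of 61657 non-control spots, 84 external RNA controls and 47 outlier-flagged probes were left out. RefSeq accessions gave current symbols to 27435 probes. Signals were put on the log2 scale, and the array's 75th percentile was subtracted. A gene is its kept probe with the highest mean. Coordinates of the array design (rn4) are not given. The group difference was fitted in limma 3.58.1 under R 4.3.3 (lmFit, eBayes, Benjamini-Hochberg over all features, threshold 0.05), which was tested on simulated data. Figures used Python 3.11.15 and matplotlib 3.10.9. Members and lists were chosen with earlier results of these data known, and all comparisons of members are descriptions. Named were all members. From each heme and iron pathway list came up to 4 genes with a log2 fold change over 0.5 in size or groups without overlap. Added were the 10 named genes with the largest gap on treated replicate 3 among those well above background there. So were the 5 most correlated with Hmox1 among named genes spanning at least 1 over the 6 arrays. Last came up to 6 regulators and stress genes with the largest gap on treated replicate 3. Bach1, Mafk, Gclm, Gclc and Hspa1a, which are on the regulator and stress lists without such a gap, fall outside this rule. So do Ireb2, Havcr1, Krt19, Alb, Ttr, Apoa1 and Cyp2c11, and all of these were chosen after their values were seen. Alternatives were another background correction, scaling, filter, probe rule or variance model, the authors' values, replicate or slide blocks, and each array left out.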

Additional observations from a re-analysis of the deposited data

How the results depend on the processing

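No member passed the threshold under any of the 18 alternatives (17 for Hamp). Hmox2, Blvra, Blvrb, Fth1, Tfrc, Slc40a1 and Slc11a2 kept their direction in all of them. Hmox1 stayed above 0 as well, but through treated replicate 3. Without that array its log2 fold change was 0.03 ± 0.09 (SE). Leaving out 1 array at a time, Ftl1 ranged from -0.024 to 0.059 and Hamp from -0.16 to 0.10, each with a change of sign. Over the same 6 fits the median of the members ranged from 0.11 (without treated replicate 3) to 0.25, that of the other heme and iron genes from -0.027 to 0.054, and the number of features called from 0 to 3, with 3 without treated replicate 2, 3 without vehicle replicate 2 and 2 without treated replicate 1. Features called were 5 after normexp background correction, 5 under a robust fit with a trended variance, 2 when the probes of a gene were averaged, 1 with the filter of all 6 arrays, 3 with the slide as a block and 3 on the slide that holds both groups. Those last fits called the same features as the fit without treated replicate 2, the only array of the second slide. The filter of all 6 arrays, which drops Hamp, gave a median of 0.26 over the members. The gap of Hmox1 was 6.24 after normexp, and the cause of these shifts was not tested. The replicate number as a block gave 0 features called and changed no call. Same-numbered samples did not deviate together (correlations across features 0.02, -0.04 and -0.02). Whether they share more than a number cannot be told from these values. The 2 groups differed by array position on their common slide, and position and group cannot be told apart there. Dim probes such as Hamp and Bmp6 are limited by signal over background.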

Other observations

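Several transcripts with no symbol also stood high on treated replicate 3. AI012814 read -5.79, -5.79 and -0.87 in treated animals and -5.64, -5.67 and -6.15 in vehicle animals, the widest gap after Hmox1 at 4.77. TC606498 read -4.55, -4.70 and -0.79 in treated animals and -4.49, -4.98 and -4.67 in vehicle animals. Both were dim on the other 5 arrays, and both were chosen after their values were seen. A gap of similar size was also present on a vehicle array, where the widest on vehicle replicate 2 was 5.32.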
